A study of Mus musculus with 102 samples.

Results

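The ventral tegmental area (VTA) was compared with the substantia nigra (SN), both parts of the ventral midbrain, over 45037 probe sets of a whole-transcriptome array. The members are 4 arrays, both of those titled VTA and both titled SN, of a survey of 51 regions of the mouse central nervous system with 2 arrays each. All 4 hold RNA of adult Balb/c mice labelled as male and 7 to 8 weeks old, kept in cycles of 12 h of light. The punches were taken from both sides of frozen slices in the light cycle or in constant darkness, every 4 h at 6 times of the day, and pooled over times and animals before 1 array was run per pool. Each region was sampled in 2 separate pools, so an array is a mixture of many mice and of every cell type in the punch. In such bulk samples, fewer cells of a type and less RNA per cell cannot be told apart.

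Both regions are known for dopamine neurons, which make the transmitter from tyrosine and take it up again through a dedicated transporter. Those of the substantia nigra pars compacta project to the dorsal striatum and are lost early in Parkinson disease, whereas those of the VTA project to the nucleus accumbens and the cortex, and part of them also release glutamate. The substantia nigra also has a pars reticulata of fast-firing GABA neurons, an output of the basal ganglia, and the VTA mixes dopamine, glutamate and GABA neurons beside the mammillary region of the hypothalamus.

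Values are log2 expression values, so a difference of 1 is a doubling, and every difference is VTA minus SN. The 2 arrays of a region correlated at r = 0.997 in VTA and 0.995 in SN, and the 2 region means at 0.985. Medians of the arrays were 7.41 and 7.36 in VTA and 7.40 and 7.39 in SN. Dopamine neuron genes put both labels in the ventral midbrain: *Slc6a3*, the dopamine transporter, read 12.27 and 12.59 in VTA and 12.28 and 12.67 in SN, against at most 7.67 as the mean of any of the other 46 regions. By 1 minus r of linear values, VTA lay nearest to PAG, the periaqueductal gray (0.0199). SN lay nearest to LH, the lateral hypothalamus (0.0261), and then to the globus pallidus (0.02885). VTA and SN stood 0.0366 apart, with SN at rank 7 among the regions nearest to VTA and VTA at rank 10 for SN.

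The VTA arrays went against their label of sex. *Xist*, the RNA that coats the inactive X chromosome of female cells, read 9.46 and 9.24 in VTA and 5.78 and 5.78 in SN. It also read 9.66 and 9.19 in SPa dorsal, the dorsal subparaventricular zone, and 8.83 and 9.91 in the pineal. In SPa ventral, the ventral part of that zone, it read 5.88 and 5.86, and it read no more than 6.02 on 92 other arrays. Y-linked genes did not separate the regions as clearly: *Eif2s3y* read 6.26 and 6.56 in VTA and 6.75 and 6.58 in SN (adjusted p = 0.517, limma), and of the 9 probe sets of *Eif2s3y*, *Kdm5d* and *Uty* 1, of *Kdm5d*, was lower in VTA (-0.36, adjusted p = 0.0323, limma). The part of sex in the results was not tested. The study's sampling table places both VTA pools on 1 day, which they share with SPa dorsal, SPa ventral and the pineal, and the SN pools on 3 other days. Sex and day therefore cannot be told apart from region in any difference below. To set a difference between the same periods beside each result, the mean of SPa ventral and SPa dorsal was set against 5 hypothalamic regions sampled in the period of the SN pools (mammillary body, medial preoptic area, supraoptic nucleus, VMH and LH). This is called the SPa difference here, and an alternative chosen after seeing the data tested VTA minus SN beyond it. The SPa difference also holds what truly differs between those nuclei. It joins SPa dorsal, high in *Xist*, with SPa ventral, which is not, so it is not matched to VTA in *Xist*. Beyond the SPa difference *Xist* was still higher in VTA, by 1.70 (adjusted p = 1.47e-16, limma).

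A total of 9500 probe sets differed between VTA and SN at an adjusted p under 0.05 (limma with Benjamini-Hochberg adjustment), which is 21.1% of those tested. Of these, 5286 were higher in VTA (11.7%) and 4214 lower (9.36%). Most differences were small. The median size was 0.457 among called probe sets, 370 were higher and 177 lower by more than 1, and 38 were higher and 3 lower by more than 2. Counted over 18193 genes by 1 probe set each, 2685 were higher (14.8%) and 1742 lower (9.58%), together 24.3%, with a median difference of -0.01. Beyond the SPa difference 1194 probe sets were higher (2.65%) and 877 lower (1.95%), and of the genes 1.97% were higher and 1.13% lower in both comparisons. Without SN replicate 1 the counts were 2526 higher and 1511 lower, against 4222 and 3425 without SN replicate 2. They were 3337 and 2395 without VTA replicate 1, and 3276 and 2252 without VTA replicate 2.

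The 15 genes that rose most were taken only from probe sets with both VTA arrays above both SN arrays. The 15 that fell most had both SN arrays above, so this separation was set by the choice. By 1 probe set each, 33.2% of all genes had VTA above in this way and 31.5% had SN above. Genes of several kinds were among the 15 that rose. *Adcyap1*, which encodes the neuropeptide PACAP, read 9.23 and 9.13 in VTA and 5.25 and 5.75 in SN, a difference of 3.68 ± 0.24 (SE, adjusted p = 1.29e-17, limma). *Crhbp*, a secreted protein that binds corticotropin-releasing hormone, read 8.82 and 8.95 in VTA and 5.73 and 5.84 in SN (3.10 ± 0.21, adjusted p = 3.82e-17, limma). SN lay below the mean of the other 46 regions for both genes. The mammillary body was above VTA for *Adcyap1*, at 9.86, and the hippocampal field CA1 for *Crhbp*, at 9.20. *Slc17a6*, the vesicular glutamate transporter VGLUT2, read 12.55 and 12.33 in VTA and 9.30 and 10.22 in SN, 6.40-fold higher in VTA. VTA ranked 5 of the 48 regions for *Slc17a6*, below the mammillary body at 12.57. *Glra2*, a glycine receptor subunit, read 9.34 and 9.18 in VTA and 5.96 and 6.47 in SN. The VTA mean of 9.26 was the highest of the 48 regions, but nearly level with LH at 9.25.

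*Dmrta2*, a transcription factor of the doublesex family, read 9.80 and 9.71 in VTA and 6.65 and 6.86 in SN (7.99-fold higher, adjusted p = 2.2e-23, limma), and no other region exceeded a mean of 7.84. *Nhlh2*, a basic helix-loop-helix factor of hypothalamic neurons, read 8.43 and 8.59 in VTA and 5.73 and 5.85 in SN, and *Neurod6*, a factor of the same class, 6.94 and 7.44 in VTA and 4.54 and 4.51 in SN. VTA ranked 6 of 48 for *Nhlh2*, below the mammillary body at 8.97, and 8 for *Neurod6*. These 7 genes were also higher beyond the SPa difference, by 3.63 for *Nhlh2*, the most, and 2.12 for *Glra2*, the least. *Cbln1*, a synapse organiser (2.95), and *Cacna2d1*, an accessory calcium channel subunit (2.44), were higher by 2.04 and 1.76 there.

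Other genes near the top had a large SPa difference as well. *Oas1c*, of the oligoadenylate synthetase family, was higher by 3.63 in VTA and by 2.61 in the SPa difference, and beyond it the adjusted p was 0.149 (limma). *Atrnl1* was higher by 2.64 and 2.67, and *Pmch*, the precursor of melanin-concentrating hormone, by 2.42 and 2.52. Regions of other days were higher still for *Oas1c* and *Pmch*, with DM, the dorsomedial hypothalamic nucleus, at 10.43 and 13.97, and the part of the day in these values was not tested. *Nudt21*, a cleavage factor of mRNA 3' end processing, read 11.19 and 11.08 in VTA and 7.76 and 7.52 in SN by the probe set that differed most, but the arrays of SPa ventral split at 11.01 and 7.67, and 1 of its 4 probe sets, at 0.29, did not pass the threshold. *Anp32a*, an acidic nuclear phosphoprotein and the gene that fell most, read 7.59 and 7.73 in VTA and 10.38 and 10.20 in SN, with SPa ventral at 7.80 and 9.62. Its other 2 probe sets were at -0.04 and -0.07 and did not pass the threshold.

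Among the 15 genes that fell most, *Pvalb*, the calcium-binding protein parvalbumin of fast-spiking neurons, read 9.44 and 9.32 in VTA and 12.07 and 11.16 in SN (-2.23 ± 0.20, adjusted p = 3.84e-12, limma). *Gad1*, which encodes the GABA-synthesizing enzyme GAD67, read 9.69 and 9.79 in VTA and 12.07 and 11.65 in SN (-2.12 ± 0.24, adjusted p = 1.32e-09, limma), and VTA ranked 45 of 48. *Aqp4*, the water channel of astrocytes, read 10.58 and 10.47 in VTA and 12.74 and 12.25 in SN, and *Laptm5*, a lysosomal protein of immune cells, 8.10 and 8.14 in VTA and 10.25 and 9.43 in SN. All 4 of these genes were also lower beyond the SPa difference, by -1.33 for *Pvalb*, -2.27 for *Gad1*, -0.89 for *Aqp4* and -1.22 for *Laptm5*. *Dlg4*, the postsynaptic scaffold PSD-95, *Max*, the partner of Myc, *Rph3a*, a synaptic vesicle protein, *Kif5c*, a neuronal kinesin, *1500009C09Rik*, and the probe sets of *C1qb*, a complement subunit, and *Gja1* that differed most did not pass the threshold there. *Arpp21*, a cAMP-regulated phosphoprotein of striatal neurons, fell by 1.68, but of its 5 probe sets 2 were lower and 1 was higher in VTA.

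**Figure D1:**
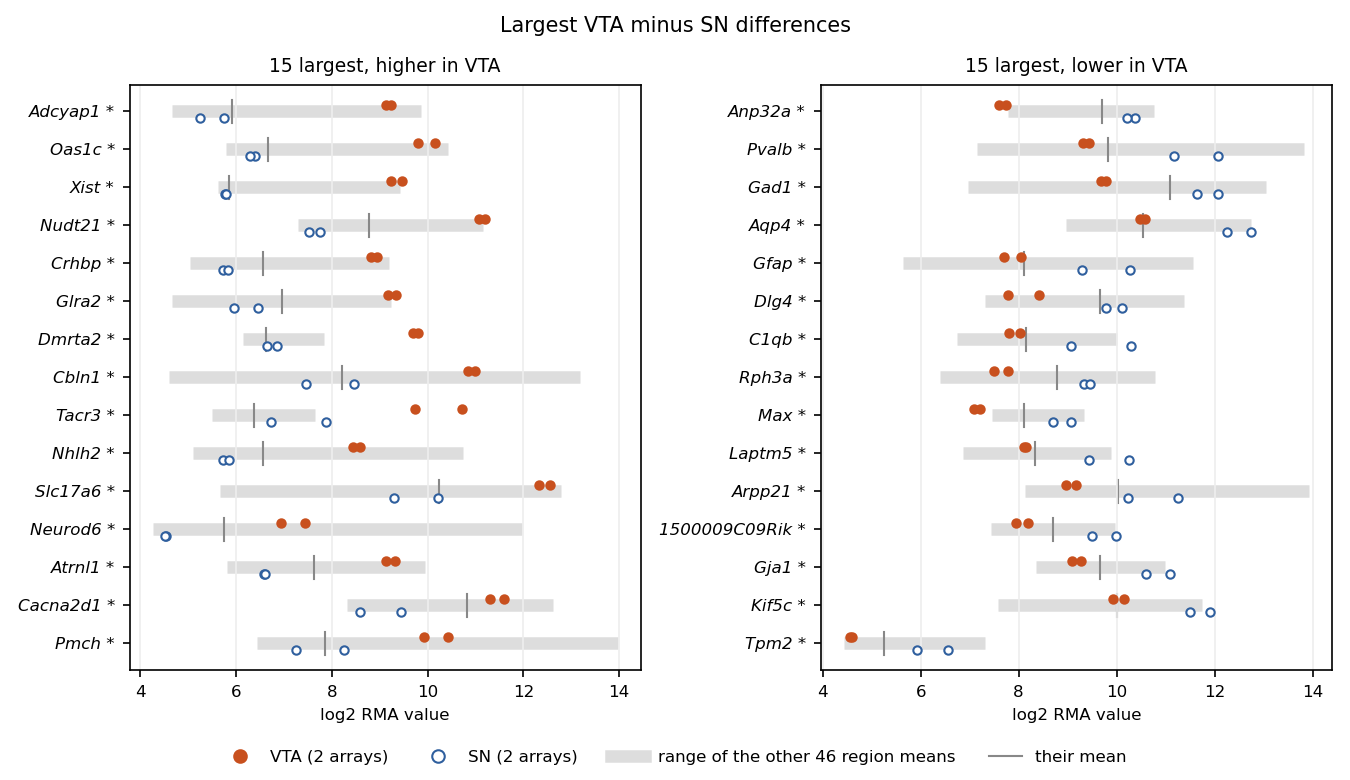
Expression (log2 RMA value, x axis) of the 15 genes with the largest differences in each direction. Filled points are the 2 VTA arrays, open points the 2 SN arrays, grey bars the range and grey ticks the mean of the other 46 region means. The genes were chosen so that both VTA points lie beyond both SN points. *Dmrta2* and *Tacr3* are the genes whose VTA points lie beyond the whole range of the other regions on the high side.

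Genes of dopamine synthesis, storage and reuptake were counted next. This list and those below were chosen with earlier results of these data known, so their counts are descriptions only. Of 10 measured, 1 was higher in VTA and none was lower, beside 14.8% and 9.58% of all genes. For a list of 10 genes these counts are near those shares. The median difference was -0.005. *Th*, the rate-limiting enzyme of dopamine synthesis, read 12.07 and 12.72 in VTA and 12.28 and 13.19 in SN (-0.34 ± 0.20, adjusted p = 0.24, limma), and *Slc18a2*, the vesicular monoamine transporter, 12.00 and 12.66 in VTA and 11.77 and 12.64 in SN. For *Th*, *Ddc*, *Slc18a2* and *Slc6a3* the arrays of the regions overlapped, and VTA and SN held the highest and second highest means of the 48 regions. For all 4, the 2 arrays of a region differed by more than the regions did. *Ddc*, which converts L-DOPA to dopamine, was lower beyond the SPa difference, by -0.98 (adjusted p = 0.0282, limma), and the other 3 did not pass the threshold there. The gene that rose was *Gch1*, which makes the tetrahydrobiopterin cofactor of tyrosine hydroxylase: 8.00 and 8.88 in VTA and 7.01 and 8.06 in SN (0.91 ± 0.23, adjusted p = 0.0032, limma), with 1 VTA array below 1 SN array. Beyond the SPa difference it was at 0.84 with an adjusted p of 0.0587 (limma).

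Of 13 transcription factors of the dopamine lineage, 6 rose in VTA, none fell and 7 did not pass the threshold, with a median difference of 0.46, against 14.8% of all genes that rose. *Foxa1*, a forkhead factor of the midbrain floor plate, read 9.75 and 9.91 in VTA and 8.25 and 9.50 in SN (0.96 ± 0.22, adjusted p = 0.000795, limma), and the next region after these averaged 7.48. *Ebf3* rose by 1.30, *Nr4a2*, the nuclear receptor NURR1 needed for dopamine neurons to form, by 0.81, *Foxa2* by 0.78, *Otx2*, a homeodomain factor known from VTA dopamine neurons, by 0.65, and *Lmx1a* by 0.64. Of the 6 probe sets of *Nr4a2*, 2 went the other way, at -0.42 and -0.55 (adjusted p = 0.00817 and 0.00145, limma). All 6 genes were also higher beyond the SPa difference, but without SN replicate 1 the count was 3. *En1*, an engrailed factor that maintains dopamine neurons, read 7.08 and 8.85 in VTA and 6.57 and 8.44 in SN, and *Pitx3*, whose loss removes nigral dopamine neurons in mice, 6.85 and 6.58 in VTA and 6.69 and 6.98 in SN. Neither passed the threshold, and the pools of *En1* differed more within a region than between the regions.

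Because FOXA, NR4A, OTX and GATA factors were among the genes that differed, the short motifs given for them were counted in RefSeq promoters (GRCm38.p6, 250 bases before to 50 after a gene's start), on both strands. TGTTTAC (FOXA) was in 3.65% of all 32851 promoters and 1.33% of those of genes higher by over 1, AAAGGTCA (NR4A) in 1.51% and 0.667%, GGATTA (OTX) in 7.06% and 5.33%, and the motif known for GATA factors, spelled AGATAA, in 11.2% and 8%. Genes lower by over 1 had 1.49%, 1.49%, 4.48% and 11.9% for the same motifs. Both shares rest on few promoters (150 and 67), and a match in a promoter is a description of its letters only. The promoters of *Th* and *Slc6a3* held none of these motifs. Promoters of *Foxa1* (chr12:57546062-57546361, minus strand) and *Gad1* (chr2:70561879-70562178, plus strand) are shown since these genes stand for the dopamine lineage and the GABA genes, with the FOXA motif on the reverse strand of *Foxa1* and the OTX motif of *Gad1* in capitals.
Foxa1: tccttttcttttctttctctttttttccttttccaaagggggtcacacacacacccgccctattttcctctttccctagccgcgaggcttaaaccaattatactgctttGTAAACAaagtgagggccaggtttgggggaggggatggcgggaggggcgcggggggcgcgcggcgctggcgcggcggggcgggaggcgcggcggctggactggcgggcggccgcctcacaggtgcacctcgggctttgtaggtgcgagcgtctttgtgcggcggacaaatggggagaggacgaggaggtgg
Gad1: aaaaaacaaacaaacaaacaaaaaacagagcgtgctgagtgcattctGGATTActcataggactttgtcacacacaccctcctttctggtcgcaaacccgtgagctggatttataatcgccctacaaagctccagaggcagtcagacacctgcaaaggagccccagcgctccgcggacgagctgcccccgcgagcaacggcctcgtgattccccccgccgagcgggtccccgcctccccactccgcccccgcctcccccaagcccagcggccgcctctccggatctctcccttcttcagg

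Of 12 genes known from VTA dopamine neurons, 9 rose and 1 fell, with a median difference of 1.76, against 14.8% of all genes that rose and 9.58% that fell. Beside *Slc17a6*, *Adcyap1*, *Neurod6* and *Otx2*, these were *Calb1*, the calcium-binding protein calbindin (11.55 and 11.56 in VTA, 9.06 and 10.24 in SN), *Lpl*, a lipoprotein lipase (1.83 ± 0.20), *Grp*, gastrin-releasing peptide (10.19 and 10.48 in VTA, 7.84 and 9.17 in SN), *Vip*, vasoactive intestinal peptide (1.69 ± 0.33), and *Tacr3*, the neurokinin B receptor. *Crym*, a thyroid hormone binding protein, was lower, at 6.34 and 6.44 in VTA and 8.11 and 6.74 in SN. *Vip* was at 1.36 in the SPa difference and the others that rose stayed past the threshold beyond it. By its 3 probe sets *Tacr3* differed by 2.94, 2.21 and 0.70. *Slc17a6*, *Adcyap1*, *Neurod6* and *Tacr3* were already among the 15 genes that rose most. Since the list was chosen with earlier results of these data known, its count is no separate evidence.

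Of 11 genes known from nigral dopamine neurons, 1 fell in VTA and none rose, with a median of -0.01. Of all genes 9.58% fell and 14.8% rose. The gene that fell, *Aldh1a7*, an aldehyde dehydrogenase close to *Aldh1a1*, read 7.29 and 7.68 in VTA and 8.65 and 9.43 in SN (-1.55 ± 0.12, adjusted p = 3.95e-14, limma). All other regions averaged at most 5.90, and the difference beyond the SPa difference was -1.60. *Aldh1a1*, which makes retinoic acid and marks ventral tier nigral neurons, read 12.90 and 13.05 in VTA and 12.85 and 13.26 in SN, *Sox6*, a factor of the same neurons, 8.63 and 8.56 in VTA and 8.73 and 8.66 in SN, and *Kcnj6*, the GIRK2 potassium channel, 7.97 and 7.97 in VTA and 7.89 and 8.08 in SN. None of these 3 passed the threshold by these probe sets, though 2 others of *Sox6* were lower, by -0.70 and -0.38, and *Aldh1a1* was higher by 0.98 beyond the SPa difference. *Sncg*, gamma-synuclein, was lower in VTA, at 8.94 and 9.74 in VTA and 10.33 and 10.79 in SN (-1.22 ± 0.22, adjusted p = 3.59e-05, limma), and SN was the highest of the 48 regions, but the difference beyond the SPa difference was -0.37 with an adjusted p of 0.45 (limma).

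**Figure D2:**
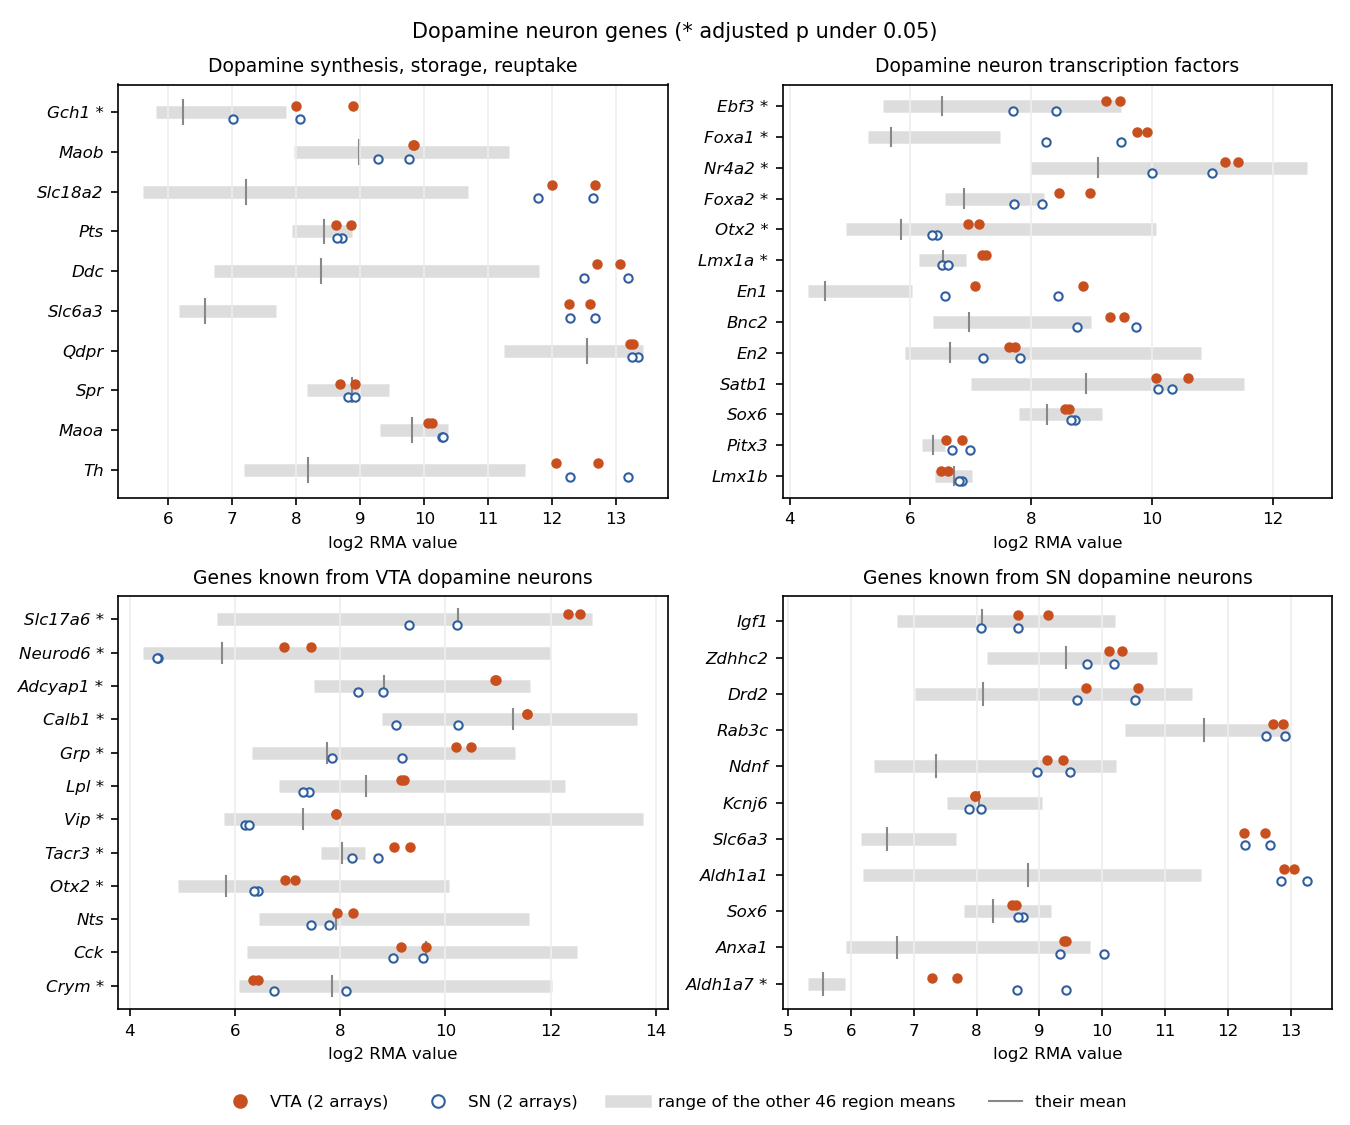
Expression (log2 RMA value, x axis) of dopamine neuron genes in 4 lists, with VTA arrays as filled points, SN arrays as open points and the other 46 region means as a grey bar (range) and tick (mean). Asterisks mark an adjusted p under 0.05. *Th*, *Ddc*, *Slc18a2* and *Slc6a3* overlap between the regions, 9 genes of the VTA list carry an asterisk with VTA to the right of SN, and *Aldh1a7* one with VTA to the left.

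Of 11 genes known from midbrain GABA neurons, 6 fell and none rose (median -0.34), against 9.58% of all genes that fell. Beside *Pvalb* these were *Gata3*, a zinc finger factor that sets GABA identity (5.25 and 5.45 in VTA, 6.73 and 6.69 in SN), *Six3* (7.61 and 7.47 in VTA, 8.94 and 8.17 in SN), *Tal1*, a partner of GATA factors (-0.77 ± 0.14), *Kcnc1*, the Kv3.1 channel of fast-firing cells (-0.44 ± 0.15), and *Foxp1* (-0.34 ± 0.13). For 10 of the 11 genes both SN arrays lay above both VTA arrays, as they did for 31.5% of all genes. *Kcnc1* and *Foxp1* did not pass the threshold beyond the SPa difference, and without SN replicate 1 the count was 3. Of 6 genes of GABA synthesis and transport, 3 fell and 1 rose. By its brightest probe set *Gad1* read 10.88 and 11.22 in VTA and 12.77 and 12.40 in SN, *Slc32a1*, the vesicular GABA transporter, 10.09 and 10.58 in VTA and 11.41 and 11.16 in SN, and *Slc6a11*, a GABA transporter of astrocytes, 11.23 and 11.32 in VTA and 12.20 and 12.07 in SN. *Gabbr1*, a GABA-B receptor subunit, rose by 0.37. Without SN replicate 1, 1 of the 6 fell. *Gad2*, the second GABA-synthesizing enzyme, was at -0.45 ± 0.23 (adjusted p = 0.157, limma), and lower by -1.28 beyond the SPa difference. By its other probe set *Gad2* fell, at 8.12 and 8.43 in VTA and 9.71 and 9.51 in SN (-1.33, adjusted p = 0.00189, limma).

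Of 32 neuropeptide precursors measured, 9 rose and none fell, with a median of 0.10, against 14.8% of all genes that rose and 9.58% that fell. Beside *Adcyap1*, *Pmch*, *Grp* and *Vip*, *Tac1*, the precursor of substance P, read 11.79 and 11.70 in VTA and 9.63 and 10.21 in SN, *Crh*, corticotropin-releasing hormone, 6.10 and 6.29 in VTA and 4.74 and 4.59 in SN, and *Cartpt*, the CART peptide precursor, 8.53 and 9.25 in VTA and 7.73 and 8.06 in SN. *Npvf* rose by 1.08 and *Hcrt*, the orexin precursor, by 0.42. These last genes, with *Pmch*, are known from hypothalamic neurons. *Pmch*, *Vip* and *Npvf* did not pass the threshold beyond the SPa difference, and the other 6 did. *Cck*, cholecystokinin, and *Nts*, neurotensin, which many VTA dopamine neurons make, were at 0.10 ± 0.31 and 0.48 ± 0.26 (adjusted p = 0.868 and 0.196, limma), with *Nts* higher by 1.65 beyond the SPa difference.

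Among 35 neuropeptide receptors, 10 rose and 3 fell, again against 14.8% and 9.58% of all genes. *Trhr*, the thyrotropin-releasing hormone receptor, was higher by 1.37, *Ntsr1*, the neurotensin receptor of dopamine neurons, by 1.01 (9.82 and 10.23 in VTA, 8.55 and 9.47 in SN), and *Sstr2*, a somatostatin receptor, by 1.00. *Grpr*, the receptor of the *Grp* peptide, rose by 0.60. *Oprm1*, the mu opioid receptor, rose by 0.27, while *Oprk1*, the kappa opioid receptor, was at -0.11 (adjusted p = 0.628, limma), with its other probe set higher by 0.71 (adjusted p = 0.00309, limma). *Sstr1* fell by 1.19, *Ntsr2*, a neurotensin receptor found on astrocytes, by 0.89 and *Vipr1* by 0.52. Of those named, *Sstr2*, *Grpr* and *Ntsr2* were past the threshold beyond the SPa difference in the same direction. Of 11 dopamine receptor and signalling genes, *Drd2*, the D2 autoreceptor, read 9.75 and 10.57 in VTA and 9.60 and 10.52 in SN, and *Ret*, the GDNF co-receptor, 10.05 and 10.77 in VTA and 9.49 and 10.60 in SN, and the regions overlapped for both. *Ppp1r1b*, the DARPP-32 phosphoprotein of striatal neurons, fell to 8.08 and 8.11 in VTA, against 9.27 and 8.80 in SN.

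Of 35 sodium and calcium channel genes, 17 rose and 3 fell, with a median of 0.30, against 14.8% and 9.58% of all genes. *Cacna2d1* led them, followed by *Scn3a*, a sodium channel (1.19 ± 0.20), *Scn3b*, a sodium channel beta subunit (0.81 ± 0.17), and *Cacng5* (0.80 ± 0.19), and *Cacna2d2* was lower by 0.79. This count fell to 4 beyond the SPa difference, and it was 7 without SN replicate 1 and 11 without VTA replicate 2. Pan-neuronal genes moved the same way: 6 of 12 rose and none fell, among them *Rbfox3*, the NeuN antigen (11.91 and 11.86 in VTA, 10.96 and 11.20 in SN), and *Syn2*, a synaptic vesicle protein (0.92 ± 0.19), and the log2 of their summed level was 15.92 and 16.04 in VTA and 15.61 and 15.81 in SN. None of these 6 passed the threshold beyond the SPa difference, and their part in the channel counts was not tested.

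Of 73 potassium channel genes, 11 rose and 8 fell, shares near the 14.8% and 9.58% of all genes. *Kcnh1*, an ether-a-go-go channel, rose by 1.36, *Kcna5* by 1.14 and *Kcna3* by 1.11 (8.40 and 8.61 in VTA, 7.19 and 7.60 in SN), all 3 also beyond the SPa difference. *Kcnab3* fell by 0.95, *Kcng4* by 0.77 and *Kcnn2*, a small-conductance calcium-activated channel, by 0.75. Of 17 GABA-A and glycine receptor subunits, 3 rose and 3 fell, beside the same shares of all genes. *Gabra5* rose by 1.40, and *Glra1*, the adult glycine receptor subunit of brainstem and cord, read 6.74 and 6.71 in VTA and 7.68 and 8.37 in SN, opposite to *Glra2*. *Gabrd* fell by 0.98 and was the lowest of the 48 regions in VTA. Of 16 ionotropic glutamate receptor subunits, 6 rose and 3 fell, with *Grin3a* (0.89) and *Grid1* (0.82) among those higher and *Grin2c* (-0.87) lower. Of 9 nicotinic receptor subunits, *Chrna7* (0.78), *Chrna5* (0.38) and *Chrnb2* (0.29) rose, none of them past the threshold beyond the SPa difference, and *Chrna6*, known from dopamine neurons, read 9.73 and 10.20 in VTA and 9.43 and 9.93 in SN.

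Among 12 calcium-binding proteins, 7 rose and *Pvalb* was the only one that fell. *Calb2*, calretinin, read 12.62 and 12.65 in VTA and 11.24 and 11.70 in SN, *Necab1* 8.96 and 8.94 in VTA and 6.88 and 7.26 in SN, and *Hpcal1* 11.98 and 11.90 in VTA and 10.60 and 10.89 in SN. All 3 were also higher beyond the SPa difference, by 0.94, 2.30 and 1.17. Of 71 axon guidance genes 17 rose and 2 fell, and of 55 cadherins and protocadherins 16 rose and 3 fell, against 14.8% and 9.58% of all genes. The guidance genes were led by *Unc5d*, a netrin receptor (1.42), *Epha5*, an ephrin receptor (1.23), and *Plxnc1*, a semaphorin receptor (1.01). Of the 17, 7 were also higher beyond the SPa difference, and *Epha5*, at 0.21 with an adjusted p of 0.615 (limma), was not. The cadherins were led by *Cdh13* (1.26) and *Pcdh17* (0.93). *Cdh13* was at 1.43 in the SPa difference, and 1 of the 16, *Pcdh7*, passed the threshold beyond it.

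All 15 microglia genes measured fell in VTA (median -1.05, against 9.58% of all genes that fell), and SN ranked 1 to 3 of the 48 regions for all of them but *C1qc*, for which it ranked 8. *Cx3cr1*, the fractalkine receptor, read 8.65 and 8.65 in VTA and 10.35 and 9.45 in SN (-1.25 ± 0.20, adjusted p = 3.53e-06, limma), *Csf1r*, the receptor that microglia need to survive, 11.36 and 11.24 in VTA and 12.68 and 12.01 in SN, and *P2ry12*, a purinergic receptor of resting microglia, 8.54 and 8.41 in VTA and 9.96 and 9.17 in SN. In each of these 3 genes SN replicate 1 was the highest array and SN replicate 2 stood between it and VTA. The log2 of the summed level of the list was 12.82 and 12.76 in VTA and 14.22 and 13.51 in SN. Beyond the SPa difference 12 of the 15 were lower, and without SN replicate 1 the count was also 12.

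Of 14 astrocyte genes, 6 fell and none rose (median -0.23), against 9.58% of all genes that fell and 14.8% that rose. *Gfap*, the intermediate filament of astrocytes, read 9.38 and 9.63 in VTA and 11.57 and 11.05 in SN, *Agt*, angiotensinogen, 10.84 and 10.80 in VTA and 12.46 and 11.81 in SN, and *Gja1*, the gap junction protein connexin 43, by its brightest probe set 12.66 and 12.56 in VTA and 13.21 and 12.82 in SN. Other defining genes were close to equal: *Aldh1l1* was at -0.15 ± 0.10 (adjusted p = 0.298, limma) and *Slc1a2*, the main glutamate transporter of astrocytes, at -0.06 ± 0.10 (adjusted p = 0.744, limma). The log2 of the summed level was 15.53 and 15.52 in VTA and 16.09 and 15.81 in SN. The count was 3 without SN replicate 1 and 3 without VTA replicate 2. Beside the same shares of all genes, 5 of 13 endothelial and mural genes fell and none rose. Among them were *Slc2a1*, the glucose transporter of vessels (-0.84), and *Vtn* (-0.70), but 1 of the 5 passed the threshold beyond the SPa difference.

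Few myelin genes differed, beside 14.8% of all genes that rose and 9.58% that fell. Of 19 oligodendrocyte and myelin genes, *Fa2h*, which makes myelin lipids, rose by 0.39 and *Opalin* fell by 0.53. The median of the list was -0.08, with -0.67 in the SPa difference and 0.61 beyond it. *Mbp*, myelin basic protein, read 14.12 and 14.35 in VTA and 14.32 and 14.26 in SN, while 1 of its 8 probe sets was higher in VTA, by 0.58. *C1ql1*, known from oligodendrocyte precursors and climbing fibre neurons, rose to 9.16 and 9.29 in VTA, against 8.76 and 8.73 in SN, and these were the highest regions of the 48.

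**Figure D3:**
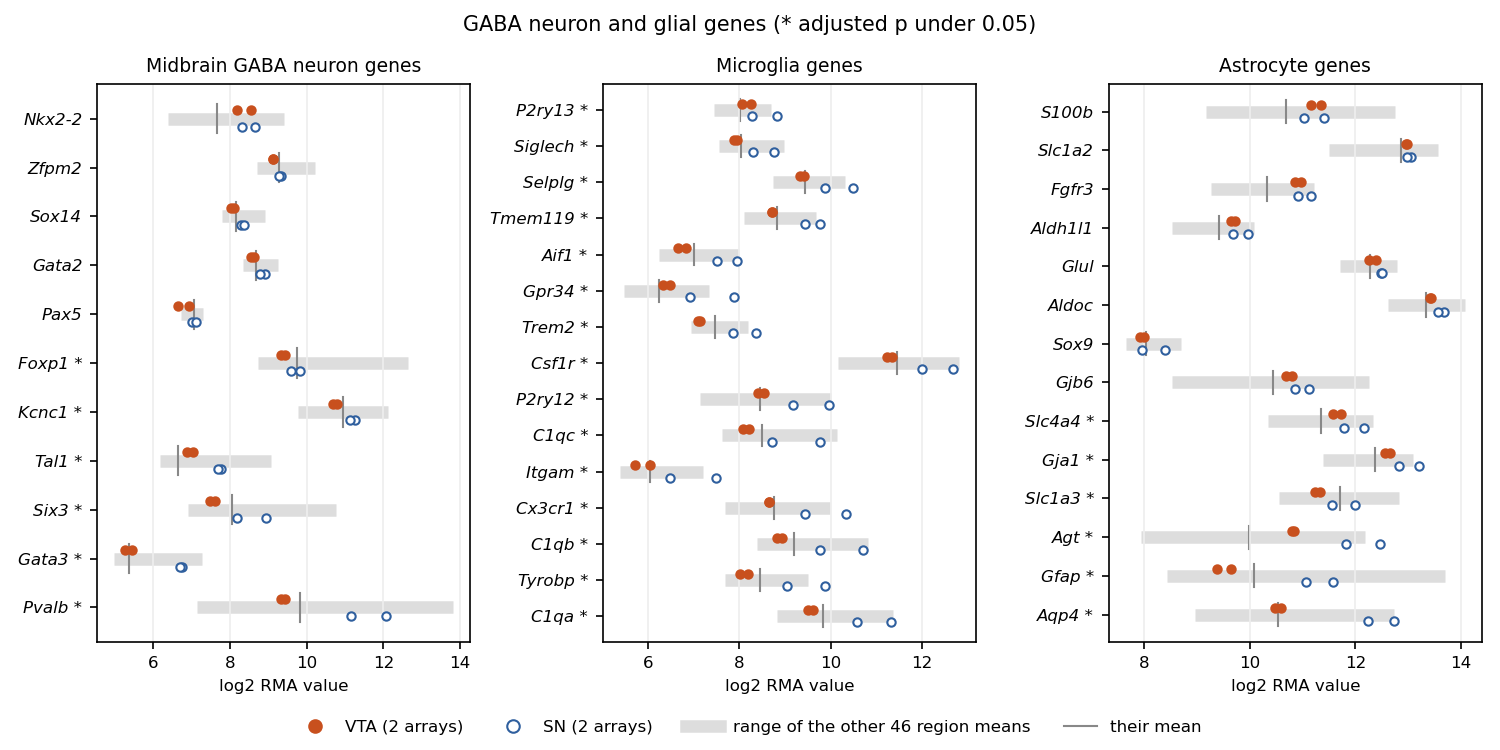
Expression (log2 RMA value, x axis) of midbrain GABA neuron, microglia and astrocyte genes, with VTA arrays as filled points, SN arrays as open points and the other 46 region means as a grey bar (range) and tick (mean). Asterisks mark an adjusted p under 0.05. All 15 microglia genes and 6 genes in each of the other panels carry an asterisk, with VTA to the left of SN.

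Genes of neighbouring structures were checked in the same way, beside 14.8% of all genes that rose and 9.58% that fell. Of 25 transcription factors of hypothalamic and mammillary neurons, *Nhlh2* and *Otp* (0.70) rose and *Irx2* fell by 0.51. *Foxb1*, a factor of the mammillary body, read 6.88 and 6.75 in VTA and 6.55 and 6.67 in SN (adjusted p = 0.319, limma), and *Sim1* was at 0.21, with its other probe set higher by 0.70 (adjusted p = 0.000195, limma). Of 9 genes of thalamic neurons 3 fell, namely *Tcf7l2* (8.04 and 8.48 in VTA, 9.50 and 9.77 in SN), *Tnnt1* (6.36 and 6.55 in VTA, 6.99 and 8.09 in SN) and *Prkcd* (-0.78). All 3 were lower beyond the SPa difference too. Of 10 genes of striatal projection neurons, *Gpr6* rose by 1.46 and *Adcy5* by 0.36, while *Ppp1r1b* fell. Beyond the SPa difference *Gpr6* was at 0.68 (adjusted p = 0.16, limma), and another probe set of *Adcy5* was lower, by -0.44 (adjusted p = 0.000815, limma). Of 33 Hox genes, which mark hindbrain and cord, 2 fell by under 0.4 and none rose. *Htr1a*, a serotonin receptor of raphe and limbic neurons, rose by 1.01, and *Tph2*, which makes serotonin, read 4.61 and 4.61 in VTA and 4.42 and 4.50 in SN.

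The counts of the other lists stand beside 14.8% of all genes that rose and 9.58% that fell. Of 3 glutamate transport genes only *Slc17a6* rose, of 12 serotonin receptors 3 rose, of 5 serotonin neuron genes 1 rose, and of 6 cholinergic neuron genes 1 rose, with none lower in any of these lists. Of 11 genes of synuclein and Parkinson disease 3 rose and 2 fell, and of 7 neurofilament and large-axon genes 2 fell, *Sncg* being in both lists. Of 8 pyramidal neuron genes 2 rose, of 14 core clock genes 2 rose, and of 14 immediate early genes 1 rose and 1 fell. Of 7 oligodendrocyte precursor genes 1 rose, of 10 choroid plexus genes 2, of 11 ependymal genes 1, and of 14 leptomeningeal genes 2 fell. None of 8 metabolic hormone receptors, 2 HCN channels or 3 blood genes passed the threshold.

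**Figure D4:**
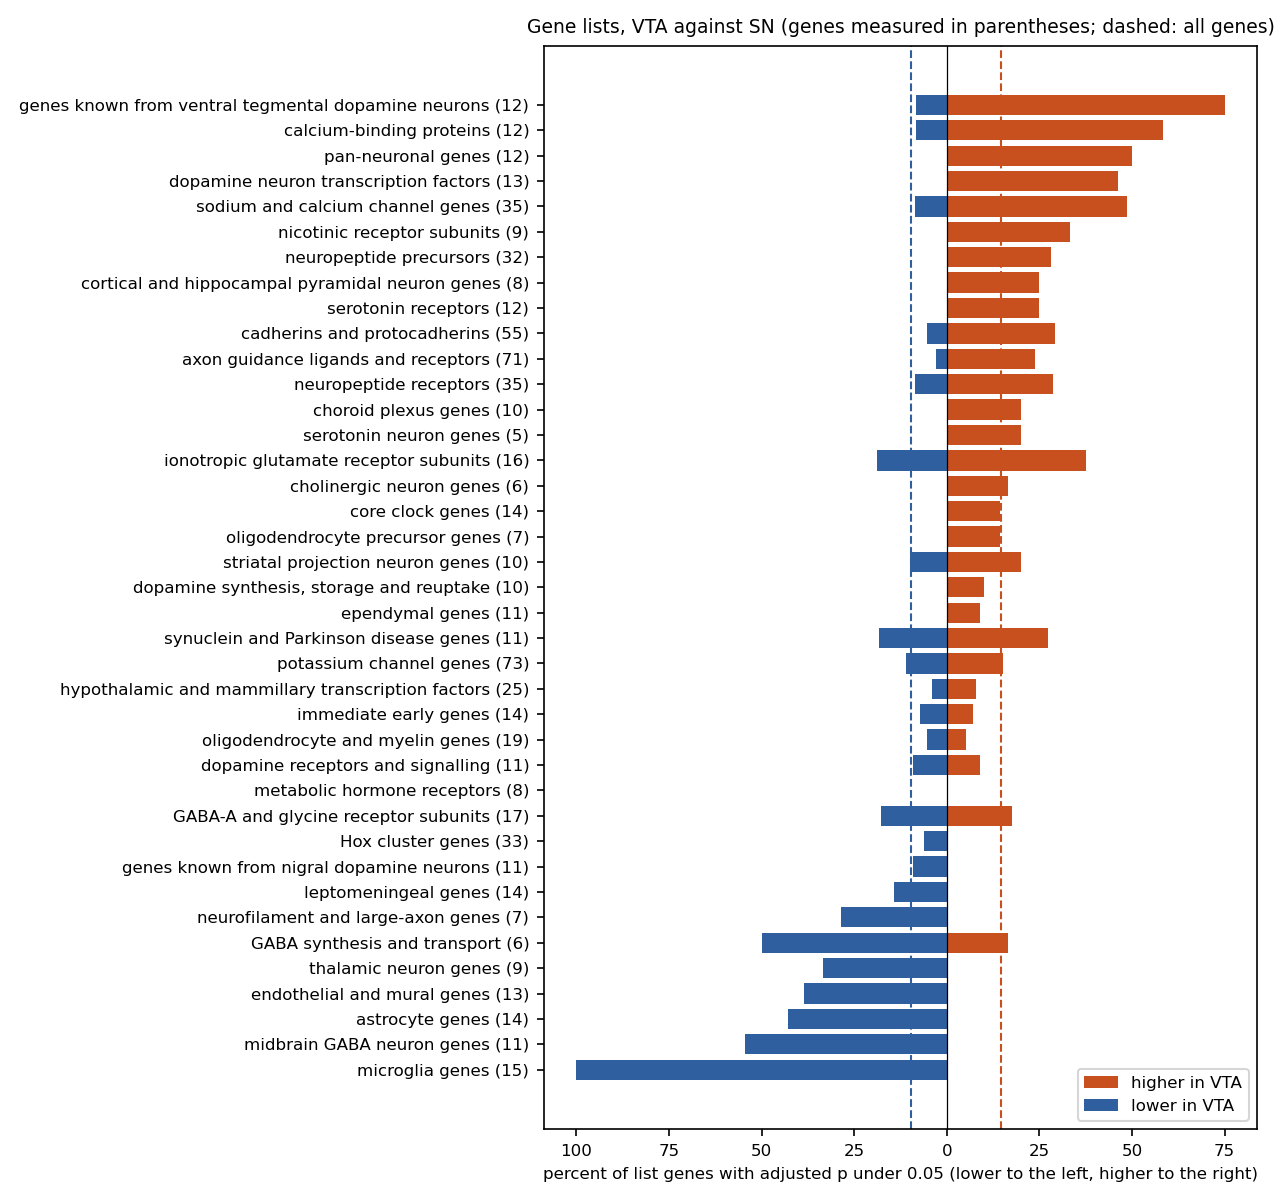
Share of measured genes (percent, x axis) higher in VTA to the right and lower in VTA to the left at an adjusted p under 0.05, for the lists with at least 5 measured genes (numbers in parentheses). Dashed lines are the shares over all genes, 14.8% higher and 9.58% lower. Genes known from VTA dopamine neurons reach farthest right with 9 of 12, and microglia genes farthest left with 15 of 15. The lists were chosen with earlier results of these data known.

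Ranked over the 48 regions, 240 of the probe sets that rose were highest of all in VTA and 183 of those that fell were highest of all in SN. Called genes that stood at least 1 above the region of rank 3, with VTA highest, were *Tacr3*, *Foxa1*, *Dmrta2*, *Ntsr1*, *Gch1*, *C130021I20Rik*, *Csf2rb2* and *Klhl1*. With SN highest they were *Aldh1a7* and again *Klhl1*, a kelch-like actin-binding protein whose 2 probe sets disagreed: one read 9.59 and 9.60 in VTA and 8.92 and 9.25 in SN, the other 9.98 and 10.36 in VTA and 10.52 and 10.97 in SN. *Csf2rb2*, a cytokine receptor subunit, read 7.10 and 7.16 in VTA and 5.96 and 5.99 in SN. *C130021I20Rik* read 9.85 and 10.49 in VTA and 8.52 and 9.85 in SN, and was higher beyond the SPa difference by 1.13. For *Foxa1*, *Ntsr1*, *Gch1* and *C130021I20Rik* SN replicate 2 stood nearer to VTA than SN replicate 1 did.

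Over all 45037 probe sets the SPa difference correlated with VTA minus SN at r = 0.609, and over the 9500 called ones at 0.761. Probe sets are not independent, and both differences hold the change of sampling day. Of the probe sets that rose in VTA, 90.3% had an SPa difference above 0, against 55.1% of all probe sets, and 91.0% of those that fell had one below 0.

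**Figure D5:**
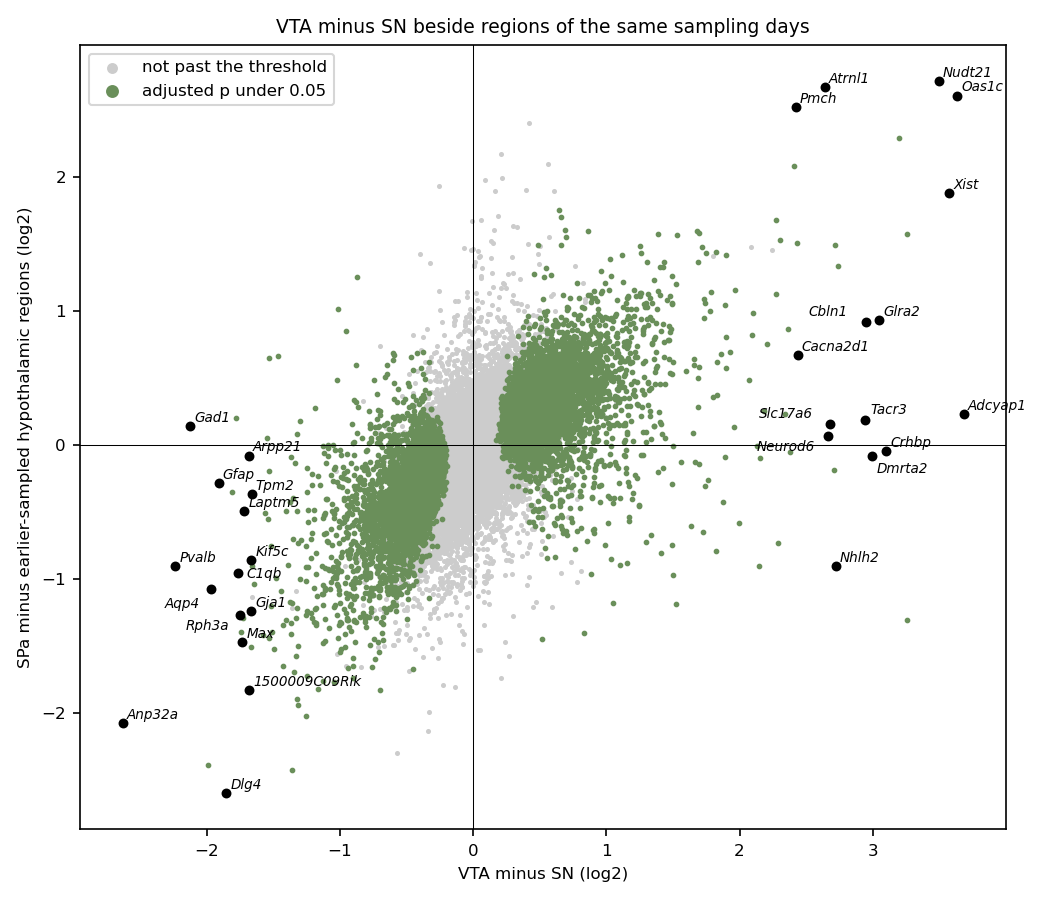
Difference of SPa ventral and dorsal from the 5 hypothalamic regions sampled earlier (log2, y axis) against VTA minus SN (log2, x axis), 1 point per probe set, green where the adjusted p was under 0.05, with the 30 genes of largest difference named. *Oas1c*, *Atrnl1*, *Pmch* and *Nudt21* at upper right and *Anp32a* and *Dlg4* at lower left are high or low on both axes, whereas *Adcyap1*, *Crhbp*, *Dmrta2*, *Tacr3* and *Gad1* lie near 0 on the y axis.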

How the data were processed

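RNA was hybridized to Affymetrix GeneChip whole-genome mouse arrays. The deposited values are log2 expression values that the authors summarized by RMA, with no version given in the sources used here. The 64 control probe sets were left out. Differences were fitted with limma 3.58.1 in R 4.3.3 on 96 arrays of 48 regions (retina, pituitary and pineal left out), with 1 coefficient per region, 48 residual and 6.63 prior degrees of freedom, and Benjamini-Hochberg adjustment over 45037 probe sets at 0.05. The fit was tested on simulated data. The number of arrays limits the precision, and p-values rest on a spread between separate pools that is shared over the 48 regions. They do not measure the spread of VTA and SN alone. For *Aldh1a7* the standard deviation between the arrays was 0.28 in VTA and 0.56 in SN, beside an SE of 0.12.

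Genes were named through the annotation of the array: 34945 probe sets had a single gene, for 18193 genes in all. Named genes are the 15 largest differences in each direction whose arrays do not overlap, by the probe set that differed most, the members of 42 lists, by the probe set with the highest mean, and genes that stand out in VTA or SN among the 48 regions. The members and lists were chosen with earlier results of these data known. Alternatives changed the arrays fitted, variance model, normalization, filter, blocks and replicates. Figures were drawn with matplotlib 3.10.9.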

Additional observations from a re-analysis of the deposited data

How the results depend on the processing

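Counts of probe sets that differed between VTA and SN stayed within 1.5 times of 9500 when only the 4 arrays (8845) or all arrays of the 51 regions (8426) were fitted, with a variance trend, cyclic loess, a filter on dim probe sets, or sampling day as a random block. Replicates of VTA and SN share only a number, from different days, and the replicate block gave 11088 in the 4 arrays and 9531 in the 96. Leaving out 1 array gave 4037 to 7647 in all, 2526 to 4222 higher and 1511 to 3425 lower, each lowest without SN replicate 1. Beyond the SPa difference, chosen after seeing the data, 2071 differed, 1194 higher and 877 lower. The cause of these drops was not tested.

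With 1 array left out, the counts ran from 3 to 7 for dopamine neuron transcription factors, 1 to 3 for GABA synthesis, 3 to 6 for midbrain GABA neuron genes, 3 to 6 for astrocyte genes and 7 to 16 for sodium and calcium channels, which had 4 beyond the SPa difference. Beyond it the sign turned for *Atrnl1* (-0.031), *Pmch* (-0.10), *Dlg4* (0.75), *1500009C09Rik* (0.15), *Foxp1* (0.13), *Cdh13* (-0.17), *Opalin* (0.48) and *Vtn* (0.43), none past the threshold there. The list medians that turned there were those of dopamine receptors (-0.16, and -0.19 to 0.31 with 1 array left out, lowest without SN replicate 1), ionotropic glutamate receptors (-0.0423), GABA-A and glycine receptors (-0.0595), endothelial genes (0.10), leptomeningeal genes (0.61) and pyramidal neuron genes (-0.0019). By the mean of all probe sets of a gene, *Chrnb2* (-0.0293) and *Adcy5* (-0.10) turned. The precision is limited by 2 arrays a region.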
